A study of Homo sapiens with 4 samples.

Results

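Transcription by RNA polymerase III, which makes transfer RNAs, 5S ribosomal RNA and other short RNAs, depends on the factors TFIIIA, TFIIIB and TFIIIC. The transcripts of their 10 genes were followed in THUMPD1 KO and WT HEK-293T cells. The members were taken by gene symbol from the count table. They are GTF3A, the single gene of TFIIIA, BRF1, BRF2 and BDP1 of TFIIIB, and GTF3C1 to GTF3C6, the 6 subunits of TFIIIC. All 10 were found among the 18917 genes of the table, and all 10 were among the 13128 genes with a CPM, the count scaled to library size, of 1 or more in at least 2 libraries, which were tested. TBP, the TATA-binding protein shared by all 3 nuclear polymerases, completes TFIIIB and was read beside the members.

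On the internal promoters of transfer RNA genes, TFIIIC binds the A and B boxes and brings in TFIIIB, which places the polymerase at the start. The 5S gene needs TFIIIA, a zinc finger protein, before TFIIIC can bind. Genes such as those of U6 and 7SK RNA have their promoter upstream, are recognized by the SNAP complex (SNAPc), and use BRF2 in place of BRF1. THUMPD1 is the adapter with which NAT10 acetylates cytidine in leucine and serine transfer RNAs, so these factors act on the synthesis of the RNAs that THUMPD1 later modifies.

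RNA was sequenced in 4 libraries, 2 of genotype WT and 2 of genotype KO, and both genotypes were untreated. The labels call the line HEK293, give the cell type as kidney embryonic and name a RiboFree total RNA kit from Zymo, whereas the paper's methods describe HEK-293T, an immortalized line of human embryonic kidney origin, and an Illumina Ribo-Zero kit. The KO cells were made there with Cas9 and paired guides against the coding sequence and then sorted as single cells, so genotype and clone cannot be told apart. Whether replicates of a genotype came from separate cultures is not stated, and p-values then measure only the spread between these libraries, which may be technical. Totals ran from 7875722 to 11362363 counts. Counts of the targeted gene, THUMPD1, were 356 and 468 in WT but 71 and 58 in KO libraries, which goes with the labels. Of 6 markers fixed for the line, all 6 were tested, with NEFM lower and NEFL and LHX1 higher in KO cells, while LHX1 lay between 0.546 and 3.2 CPM. The keratins KRT5 and KRT14 had no counts, and the blood cell markers PTPRC and CD3E stayed at or below 0.652 CPM. In bulk RNA, fewer expressing cells and less RNA per cell cannot be told apart.

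Among the 10 members, 2 were called lower in KO cells, both of TFIIIC, and none was called higher. The lower ones were GTF3C1, which fell by 29.4%, and GTF3C6, which fell by 19.98%. A gene was called where the quasi-likelihood test of edgeR gave a p under 0.05 after Benjamini-Hochberg adjustment over all tested genes. For comparison, 12.1% of all tested genes were called lower and 8.79% higher, so that 2 lower and 0 higher of 10 is close to the share among all genes. The median log2 fold change (KO over WT) of the members was -0.05, beside 0.01 over all tested genes. Before adjustment, 4 members had a p under 0.05, the other two being GTF3C2, lower, and BDP1, higher. The call on GTF3C6 and the absence of higher calls were not stable. GTF3C6 was not called with DESeq2 (adjusted p = 0.0872), and BDP1 was called higher under 6 of the 8 alternatives with all libraries. With library size alone as the scaling, 1 member was called higher and 1 lower. For a single gene, an exact two-sided permutation test with 2 libraries per genotype has 0.333 as its smallest p.

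**Figure D1:**
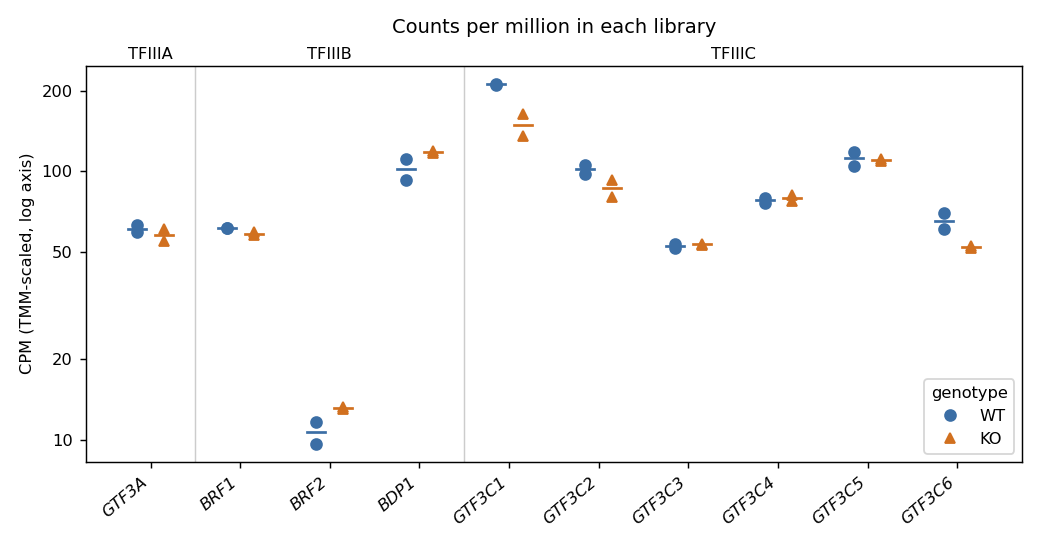
CPM of each member (log axis) in the 2 WT libraries (circles) and the 2 KO libraries (triangles), with bars at the means. GTF3C1 stood near 211 CPM in WT cells and near 149 CPM in KO cells, while BRF2, at 10.6 and 13.1 CPM, had the fewest counts.

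**Figure D2:**
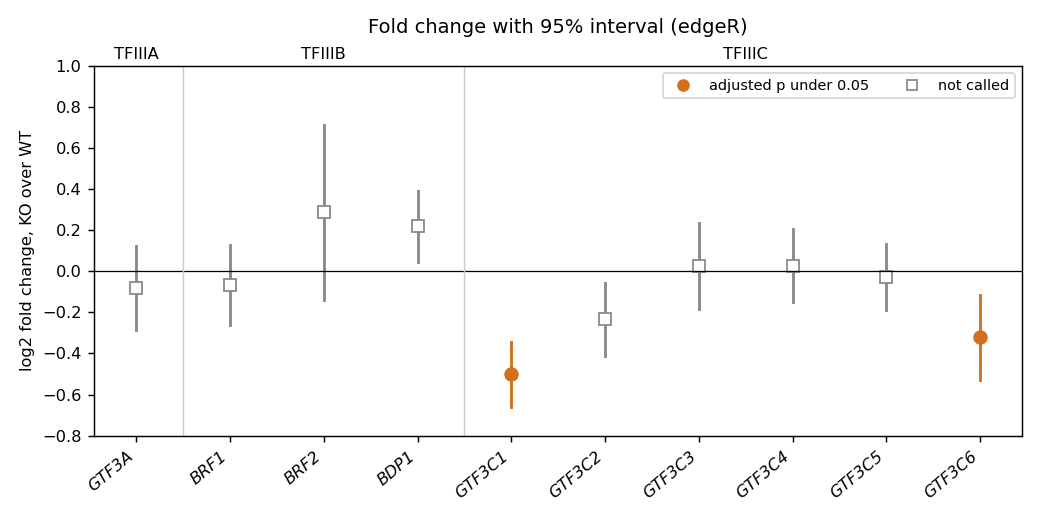
Log2 fold change of each member, KO over WT, with its 95% interval from edgeR. The interval of GTF3C1, from -0.66 to -0.35, lay farthest below 0, and that of BRF2, from -0.14 to 0.71, was the widest.

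TFIIIC is a complex of 2 lobes. GTF3C1, GTF3C2 and GTF3C4 form the lobe that binds the B box, and GTF3C3, GTF3C5 and GTF3C6 form the lobe that reaches the A box and TFIIIB. GTF3C1, the largest subunit and the main contact with the B box, was counted 1630 and 2311 times in WT libraries and 1565 and 1742 times in KO libraries. This was 213 and 210.3 CPM in WT and 135 and 164 CPM in KO libraries. Both KO libraries lay below both WT libraries, and the KO libraries differed more from each other than the WT libraries did. Mean levels were 211 ± 1.62 CPM for WT and 149 ± 20.1 CPM for KO (SD over 2 libraries each), a log2 fold change of -0.50 with a standard error of 0.08 (edgeR, adjusted p = 3.05e-05). GTF3C1 was called lower under all 8 alternatives with all libraries and with each library left out, from -0.65 without KO replicate 2 to -0.37 without KO replicate 1.

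GTF3C2, which contacts GTF3C1 in the same lobe, had 106 and 98.2 CPM in WT and 92.9 and 80.0 CPM in KO libraries. The KO libraries again lay below the WT libraries, but by less. Its log2 fold change of -0.23 (standard error 0.09) did not pass the threshold (adjusted p = 0.0548, edgeR), with an interval from -0.41 to -0.06. It was called lower under 3 of the 8 alternatives with all libraries and without KO replicate 1 or WT replicate 2. GTF3C4, to which histone acetyltransferase activity has been ascribed, had 76.6 and 79.9 CPM in WT and 77.7 and 81.9 CPM in KO libraries. The genotypes overlapped, and the log2 fold change was 0.03, with an interval from -0.15 to 0.20.

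GTF3C6, the smallest subunit, was counted 537 and 670 times in WT libraries and 599 and 561 times in KO libraries, or 70.0 and 61.0 CPM against 51.7 and 52.7 CPM. Both KO libraries lay below both WT libraries, and WT replicate 1 was the highest of the 4. The log2 fold change was -0.32 (standard error 0.10, edgeR adjusted p = 0.023). This call held under 5 of the 8 alternatives with all libraries and only without WT replicate 2 when a library was left out. The adjusted p was 0.207 without WT replicate 1, 0.0985 without KO replicate 1 and 0.0505 without KO replicate 2. GTF3C3, a protein of tetratricopeptide repeats, had 53.5 and 51.8 CPM in WT and 53.6 and 53.3 CPM in KO libraries. GTF3C5, which binds the A box region, had 105 and 118 CPM in WT and 109 and 111 CPM in KO libraries. Neither gene separated the genotypes, with intervals of the log2 fold change from -0.18 to 0.23 for GTF3C3 and from -0.19 to 0.13 for GTF3C5, whose sign turned under some alternatives. At their ends, GTF3A, GTF3C3 and GTF3C4 overlap MTIF3, CCDC150 and DDX31 on the other strand, of which none was called.

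The promoters of the 2 members called lower are shown for their sequence context. They are the 250 bases before the annotated start in RefSeq (GRCh38.p14), written 5′ to 3′ on the strand of the gene, with capitals on the motifs searched. The window of GTF3C1 is chr16:27549914-27550163 on the minus strand, and that of GTF3C6 is chr6:110958456-110958705 on the plus strand.
GTF3C1: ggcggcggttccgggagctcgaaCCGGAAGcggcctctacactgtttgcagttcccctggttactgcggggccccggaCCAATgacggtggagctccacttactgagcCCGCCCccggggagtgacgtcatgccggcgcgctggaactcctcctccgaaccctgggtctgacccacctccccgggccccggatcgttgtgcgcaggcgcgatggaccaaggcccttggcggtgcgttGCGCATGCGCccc
GTF3C6: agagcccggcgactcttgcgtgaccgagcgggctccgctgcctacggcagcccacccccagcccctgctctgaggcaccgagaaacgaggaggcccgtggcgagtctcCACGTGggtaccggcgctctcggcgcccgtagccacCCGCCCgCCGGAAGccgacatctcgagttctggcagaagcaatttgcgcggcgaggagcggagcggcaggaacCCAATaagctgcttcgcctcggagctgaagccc
Both strands were searched, and each upstream window above holds 1 ETS element, 1 CCAAT element and 1 GC box, the last on the opposite strand. GTF3C6 also holds an E box, 142 bases before its start. GTF3C1 ends in an NRF1 core whose forward and reverse matches overlap, from 13 bases before its start. In full windows of 300 bases, which also take in 50 bases after the start, 9 of the 10 members were found, with 14 windows in all. The ETS element, spelled CCGGAAG, stood in 6 of the 14 windows (GTF3A and all subunits of TFIIIC but GTF3C5). It stood in 10.3% of 35116 windows of the genome. The GC box, spelled GGGCGG, stood in 8 of the 14 windows, from 6 members, against 45.0% of all windows. An NRF1 core, spelled GCATGCGC, was in 2 of the 14 windows (GTF3A and GTF3C1), against 3.05% of all windows. The E box, spelled CACGTG, was in 3 of the 14 windows (GTF3C2, GTF3C4 and GTF3C6), against 7.26% of all windows. The CCAAT element, spelled as named, was in 3 of the 14 windows (BRF1, GTF3C1 and GTF3C6), against 34.6% of all windows. A TATA element, spelled TATAAA, was in 1 of the 14 windows (GTF3C3), against 11.5% of all windows. The core of the B box, spelled GTTCGANNC, was in no window of a member and in 0.829% of all windows. ETS elements stood both in the promoters of members called lower and in those of GTF3C3 and GTF3C4, which were not called. A match describes letters in these windows and is not a binding site.

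TFIIIB holds BDP1 and either BRF1 or BRF2, which are relatives of TFIIB of RNA polymerase II. BRF1, used on transfer RNA and 5S genes, had 61.6 and 61.4 CPM in WT and 58.0 and 59.3 CPM in KO libraries. The KO libraries lay just below the WT libraries, and the log2 fold change of -0.07 (standard error 0.10) was not called (adjusted p = 0.667, edgeR). Its interval, from -0.26 to 0.13, runs from a change of -16.7% to one of 9.36%, and the sign turned with library size alone as the scaling, at 0.02. BTBD6, which lies inside BRF1 on the other strand, was listed at 0 in all libraries, which may reflect the counting and was not tested. PACS2, which also overlaps BRF1 on the other strand, was at 0.09 and not called.

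BRF2, which serves the upstream promoters of the U6 type, was counted 74 and 128 times in WT libraries and 153 and 138 times in KO libraries. At 9.65 and 11.6 CPM in WT and 13.2 and 13.0 CPM in KO libraries, the KO values lay above the WT values. The log2 fold change was 0.29 (standard error 0.21, adjusted p = 0.350), and BRF2 was not called under any alternative. The 95% exact Poisson interval, for counting error only, ran from 7.58 to 12.1 CPM in WT replicate 1 and from 9.72 to 13.8 CPM in WT replicate 2. It ran from 11.2 to 15.5 CPM in KO replicate 1 and from 10.9 to 15.3 CPM in KO replicate 2. The interval of the log2 fold change, from -0.14 to 0.71, holds both 0 and a rise. The 3′ part of BRF2 overlaps GPR124 on the other strand by 1629 bases. GPR124 itself averaged 49.0 ± 2.10 CPM for WT and 41.0 ± 1.53 CPM for KO (SD over 2 libraries each) and was not called. Whether the counting used the strand is not stated.

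BDP1, the SANT domain subunit that completes TFIIIB on the DNA, was counted 853 and 1019 times in WT libraries and 1384 and 1243 times in KO libraries. This was 111 and 92.7 CPM in WT and 119.5 and 117 CPM in KO libraries, with the KO libraries above the WT libraries. The spread between the WT libraries, at 102 ± 13.1 CPM, was larger than that between the KO libraries, at 118 ± 2.00 CPM (SD over 2 libraries each). The log2 fold change of 0.22 (standard error 0.08) did not pass the threshold (adjusted p = 0.0634, edgeR). It was 0.35 without WT replicate 1 (adjusted p = 0.00382) and 0.09 without WT replicate 2 (adjusted p = 0.610). It was called higher with limma-voom (adjusted p = 0.0219) and not with DESeq2 (adjusted p = 0.207). TBP had 60.9 and 61.2 CPM in WT and 69.1 and 58.2 CPM in KO libraries, at a log2 fold change of 0.06 that was not called.

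GTF3A, whose protein starts the 5S complex and also binds 5S RNA, was counted 456 and 692 times in WT libraries and 637 and 650 times in KO libraries. At 59.5 and 63.0 CPM in WT and 55.0 and 61.0 CPM in KO libraries, the genotypes overlapped. The log2 fold change was -0.08 (standard error 0.10, adjusted p = 0.610), with an interval from -0.28 to 0.12. Other partners of 5S RNA moved in both directions. The ribosomal proteins RPL5 and RPL11, which join 5S RNA in the 5S particle, were called higher at 0.29 and 0.18 on the log2 scale, but RPL11 not with TMM factors from genes outside chromosomes 16 and 22, nor without WT replicate 2 or KO replicate 2. RRS1, which brings that particle into the ribosome, was called lower at -0.64. RPF2, its partner, at -0.25, and SSB, the La protein that binds new polymerase III transcripts, at -0.12, were not called. RPL5 and RPL11 have many processed pseudogenes that could share their reads, which was not tested.

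Without regard to the test, both KO libraries lay below both WT libraries for 4 members (GTF3C1, GTF3C2, GTF3C6 and BRF1) and above them for 2 (BRF2 and BDP1). This happened to 30.0% and 30.4% of all tested genes. Genotypes of the remaining 4 members overlapped.

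**Figure D3:**
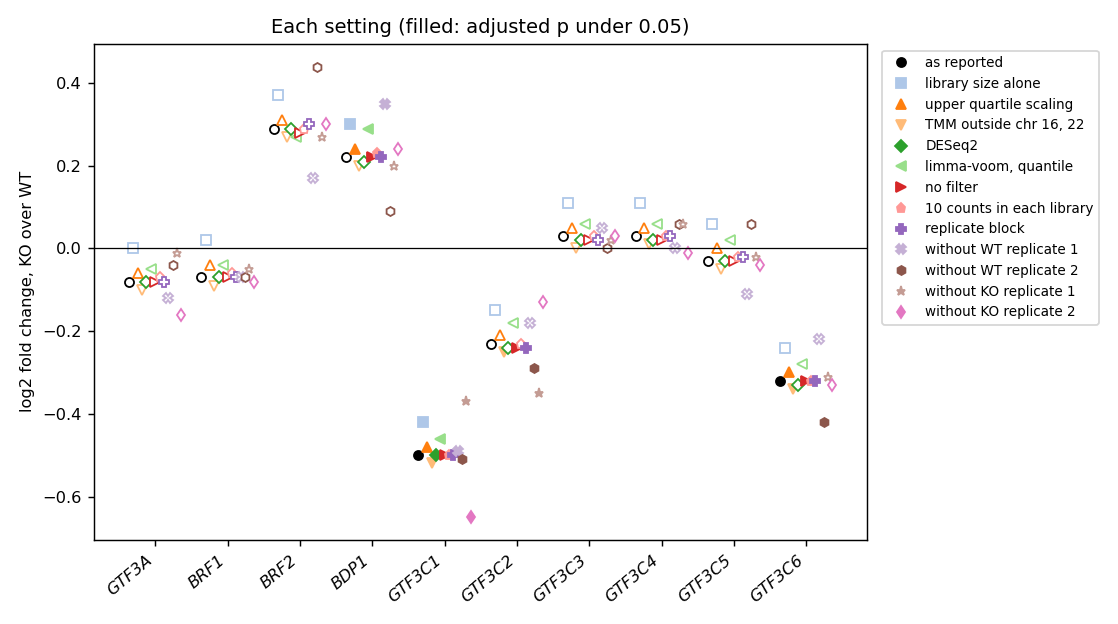
Log2 fold change of each member as reported and under each alternative setting, filled where the adjusted p was under 0.05. GTF3C1 was filled throughout, GTF3C6, GTF3C2 and BDP1 only in part, and the other 6 members in none.

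GTF3C1 is the only member on chromosome 16, where most genes were lower in KO cells. On GRCh38 (GENCODE 44) it lies on the minus strand from 27459555 to 27549913, with 37 exons in its longest transcript. Over the other 572 tested genes of the chromosome the median was -0.44 on the log2 scale, with quartiles at -0.65 and -0.18. GTF3C1, at -0.50, was 0.06 below that median, and 40.9% of the other genes were lower still. Of the tested genes of chromosome 16, 50.6% were called lower, against 10.4% of the placed genes elsewhere. Of the 59 other tested genes within 3 Mb, 34 were called lower and none higher, with a median of -0.51. These calls lay mostly on the side of higher coordinates. On the side of lower coordinates most genes were not called, and values ran from -1.01 to 0.79. The 3 nearest on that side were IL4R, called lower at -1.01, and NSMCE1 and KDM8, at 0.04 and 0.02 and not called. On the other side KIAA0556 and XPO6 were called lower at -0.43 and -0.32, and GSG1L, at -0.56 from under 2 CPM, was not. Whether the fall of GTF3C1 and that of its chromosome share a cause was not tested. Outside chromosome 16, 1 of 9 members was called lower, beside 10.4% of all genes there.

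GTF3C6 lies on the plus strand of chromosome 6 from 110958706 to 110967890. Here the surroundings did not fall. Over the other 694 tested genes of chromosome 6 the median was 0.06 on the log2 scale, and 10.5% of them were lower than GTF3C6. Of 28 other tested genes within 3 Mb, 2 were called lower and 5 higher, and the median was 0.21. Its nearest neighbours, RPF2 at -0.25 and AMD1 at -0.10, were below 0 and not called, whereas REV3L was called higher at 0.35. CDK19, METTL24 and SLC16A10 lay between 0.21 and 0.25 and were not called. The chromosomes of the other 8 members had medians between 0.01 and 0.08. GTF3C2, at -0.23, lay below all but 17.4% of the other genes of chromosome 2.

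**Figure D4:**
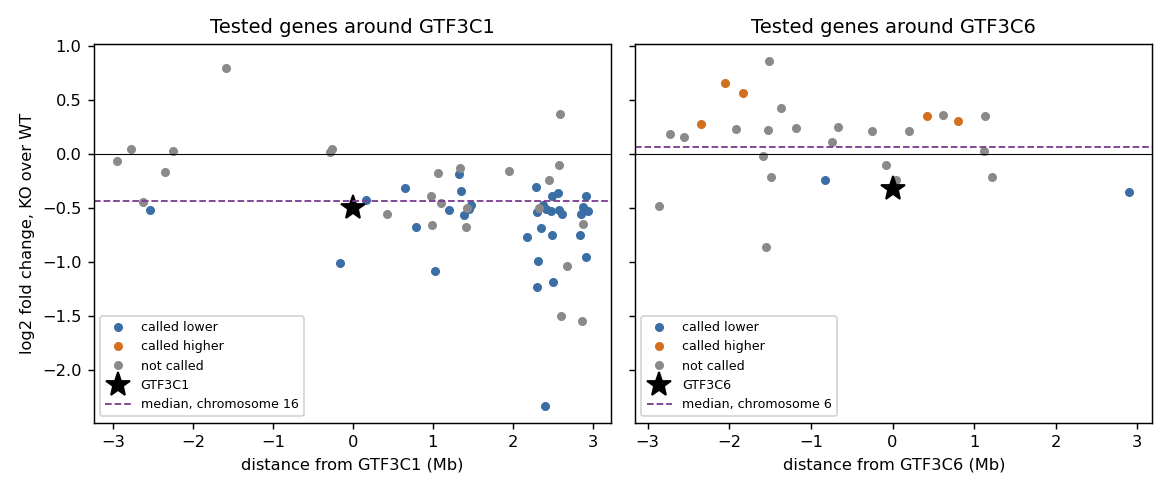
Log2 fold change of the tested genes within 3 Mb of GTF3C1 (left) and of GTF3C6 (right) against their distance in Mb, coloured by call, with a dashed line at the median of the chromosome. GTF3C1 sits near the dashed line at -0.44, and GTF3C6 sits below its line at 0.06.

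Levels of the genes were compared per kilobase of the longest annotated transcript, as CPM per kb. In WT cells GTF3C6 was the highest at 81.9 ± 8.01 CPM per kb, followed by GTF3C5 at 53.0 ± 4.43 CPM per kb (SD, n = 2). GTF3A, TBP and GTF3C1 came next, at 31.9 ± 1.29, 31.2 ± 0.121 and 29.8 ± 0.229 CPM per kb. GTF3A and TBP overlapped and did not differ beyond their spread. GTF3C2 followed at 25.5 ± 1.34, BRF1 at 16.1 ± 0.0252 and GTF3C3 at 12.4 ± 0.281 CPM per kb. BDP1 and GTF3C4 overlapped at 9.24 ± 1.19 and 9.08 ± 0.274 CPM per kb. BRF2 was the lowest, at 4.16 ± 0.551 CPM per kb. The transcripts of the 6 TFIIIC subunits were therefore not at one level in these counts, although their proteins enter one complex. In KO cells GTF3C1 stood at 21.1 ± 2.83 CPM per kb, within the spread of GTF3C2 at 21.7 ± 2.29 CPM per kb. With the length of the coding transcript instead, GTF3A rose to 42.4 ± 1.71 CPM per kb in WT cells. It then lay apart from TBP, at 32.8 ± 0.127 CPM per kb. The order of the genes by mean WT level was the same with either length. Levels and order still rest on annotated lengths, since the transcripts used for counting are not stated.

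Set against the mean log2 level of all 6 TFIIIC subunits in the same library, GTF3C1 lay above it by 0.15 and 0.16 in the WT libraries and at -0.30 and -0.06 in the KO libraries. GTF3C6 went from 1.70 and 1.52 to 1.46 and 1.46. Since these values sum to 0 in each library, GTF3C3, GTF3C4 and GTF3C5 were higher on this scale by 0.20, 0.20 and 0.15. The ratio of BRF1 to BRF2 per kb was 4.29 and 3.54 in the WT libraries and 2.95 and 3.08 in the KO libraries. The 2 genotypes did not overlap in this ratio, which was not tested and rests on 74 BRF2 counts in WT replicate 1.

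Beyond the members, the other genes of transcription by RNA polymerase III moved in both directions. Of 8 partners on the upstream promoters, 1 was called lower and none higher. That gene, SNAPC4, the largest subunit of SNAPc, had 48.1 and 48.5 CPM in WT and 35.3 and 35.96 CPM in KO libraries, a log2 fold change of -0.44 (adjusted p = 0.0059, edgeR). SNAPC1, SNAPC2, SNAPC3, SNAPC5, POU2F1, ZNF143 and TBP were not called. Of 18 subunits of the polymerase itself, 16 could be tested, and 8 were called lower and 3 higher. POLR3C and POLR3GL were listed at 0 in all 4 libraries. Whether this reflects their expression or the way reads were counted was not tested. Both POLR3E and POLR3K, which like GTF3C1 lie on chromosome 16, were among the lower ones. POLR3K was the lowest at -0.92, and POLR3F, POLR2H and POLR1D were the higher ones, of which only POLR1D was called with DESeq2.

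Among regulators of TFIIIB, MYC, an activator that binds it, was called lower at -0.20, but not with library size alone, upper quartile scaling, DESeq2 or limma-voom. MAF1, the repressor that binds the polymerase and BRF1, was at -0.07 and not called. RB1, RBL1, RBL2, CSNK2A1, CSNK2A2 and CSNK2B were not called either. Among 17 general factors of RNA polymerase II, GTF2F1 alone was called, lower at -0.19 but not under those same alternatives, and the median of -0.04 was close to the -0.05 of the members. Products of RNA polymerase III could not be followed, since none of 16 fixed names, such as RN7SK and RMRP, was in the table.

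**Figure D5:**
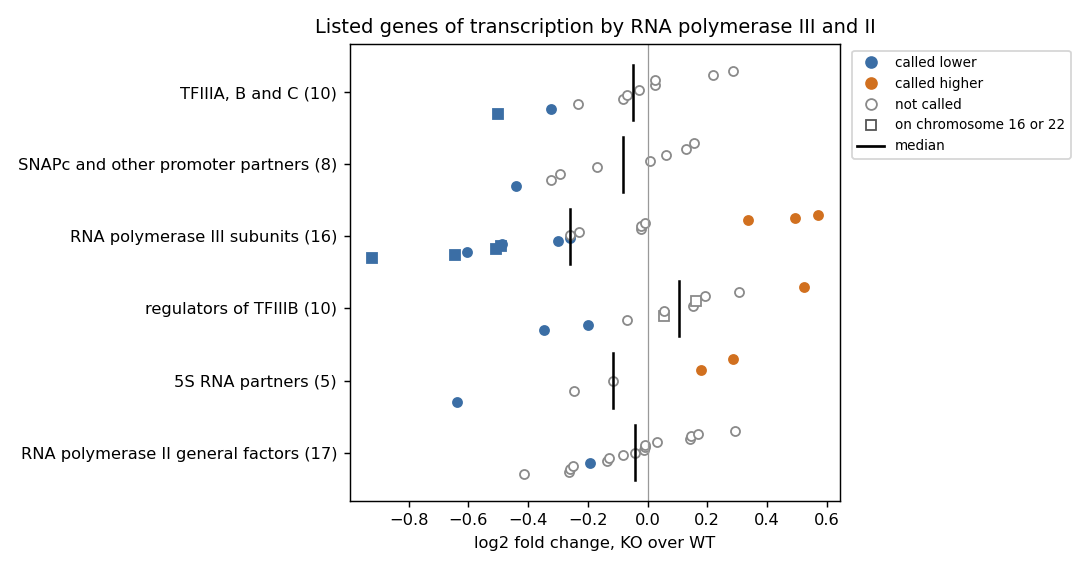
Log2 fold change of the tested genes of each list, coloured by call, with squares for genes on chromosomes 16 and 22 and a bar at the median of the list. Medians were -0.05 for the members and -0.26 for the 16 polymerase III subunits.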

How the data were processed

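Total RNA of 2 WT and 2 KO libraries was compared, grouped by genotype and replicate number as titled by the labels. The authors deposited raw read counts per gene symbol, which are not normalized. The submitters' processing notes name build hg19. For RNA-seq the paper's methods describe alignment to GRCh38 by STAR and counting by RSEM against GENCODE 46, and which pipeline made these counts is not stated. The authors' own table of fold changes and p-values was not used. No row lacked a gene name. The methods also state 3 samples for each genotype, and how these relate to the 2 libraries per genotype analysed here is not given.

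Counts were fitted whole in R 4.3.3 with edgeR 4.0.16 (TMM, glmQLFit and glmQLFTest), on genes reaching 1 CPM in 2 or more libraries. P-values were adjusted by Benjamini-Hochberg over all 13128 genes, with a threshold of 0.05. Alternatives used DESeq2 1.42.0 (without independent filtering) and limma 3.58.1. The test was checked on simulated counts. CPM refer to TMM-scaled library sizes, and 1 count was worth 0.0864 to 0.13 CPM. The TMM factors ran from 0.968 to 1.04. Intervals from counts cover counting error only. Replicates differed by more than sampling noise (chi-square per degree of freedom 4.14 in WT and 7.20 in KO), so each library was kept. Symbols were placed on GENCODE 44 (GRCh38), 12160 by symbol and 844 by a RefSeq synonym. Overlaps with other genes were read from that annotation. BRF1 and BRF2 are older names of ZFP36L1 and ZFP36L2, which the table lists apart, so the members were matched as TFIIIB genes. Tables were made in Python 3.11.15 (NumPy 2.4.6, pandas 2.3.3), intervals with SciPy 1.17.1 and figures with matplotlib 3.10.9.

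The genes named are the members, THUMPD1, called genes of each list, the 3 nearest tested genes on each side of a called member, and genes overlapping a member. The members and lists were chosen with earlier results of these data known. A few uncalled list genes of known role were named beside them, after their values were seen. Some called genes of the lists are not reported here.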

Additional observations from a re-analysis of the deposited data

How the results depend on the processing

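All alternatives were planned, and the threshold was an adjusted p of 0.05. GTF3C1 kept its call throughout, from -0.52 to -0.42 with all libraries and from -0.65 to -0.37 with a library left out. Members called higher, 0 as reported, became 1 (BDP1) with library size alone, upper quartile scaling, limma-voom, no filter, at least 10 counts in every library and the replicate block, and ran from 0 to 1 with a library left out. Members called lower, 2 as reported, became 1 (GTF3C1) with library size alone, DESeq2, limma-voom and an adjusted p of 0.01. They became 3, with GTF3C2, without a filter, with TMM factors from genes outside chromosomes 16 and 22 and with the replicate block. With a library left out they ran from 1 to 3, and the lone library of a genotype was assumed to vary like the others. All genes called, 2748 as reported, became 1739 with DESeq2 and 1594 at 0.01, and ran from 1620 (without KO replicate 1) to 2591 with a library left out. Among called genes the lower share was 58.0%, and 35.8% with library size alone. GTF3C5, at -0.03, was at 0.06 with library size alone and at 0.02 with limma-voom, and BRF1, at -0.07, was at 0.02 with library size alone. With a library left out GTF3C5 ran from -0.11 to 0.06 and GTF3C4 from -0.01 to 0.06. The causes were not tested. GTF3C1 minus the median of its chromosome ran from -0.09 to -0.02 with all libraries, and from -0.21 to 0.06 without KO replicate 2 and without KO replicate 1. The labels number the replicates 1 and 2 in both genotypes, but the deviations of same-numbered libraries correlated at only 0.0756 across 10005 genes, so they were taken to share only a number. The replicate block moved the count of called genes to 3222 and added the calls on GTF3C2 (adjusted p = 0.0157) and BDP1 (adjusted p = 0.0228). BRF2, with the fewest counts of the members, ran from 0.27 to 0.37 with all libraries and was called in none.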
